A study of Mus musculus with 6 samples.

Results

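The genes described here are those of the mevalonate and cholesterol synthesis pathway, the SREBP2 system that controls it, and genes of sterol transfer and esterification. They were the 29 rows of the deposited table, out of 54532, whose gene symbol was on a list of such genes: 4 control genes, 20 synthesis enzymes, 3 transfer and export genes and 2 acyltransferases. Levels were read by RNA-seq in 6 libraries of primary hepatocytes from C57BL/6 mice aged 32 to 34 weeks that had eaten a high-fat diet for 26 weeks. The 3 XCON libraries came from mice with both Xbp1 alleles floxed (Xbp1FL/FL), and the 3 XCKO libraries from mice whose hepatocytes lacked Xbp1 (Xbp1ΔHep). The high-fat diet was common to both groups, and no library on a normal diet was analysed here, so no value below is a comparison between diets. The sources used here do not give the Cre driver, the exons deleted, the sex of the mice, or whether each library was 1 mouse, so p-values measure only the spread between these libraries.

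Cholesterol is built from acetyl-CoA through mevalonate, isoprenoid diphosphates, squalene and lanosterol. SREBP2, the transcription factor encoded by Srebf2, is held in the endoplasmic reticulum membrane with its escort SCAP while sterols keep SCAP bound to the INSIG proteins. When sterols fall, SCAP carries SREBP2 to the Golgi, where it is cleaved, and the freed factor turns on most enzymes of the pathway. Because SREBP2 acts after cleavage, the level of Srebf2 RNA does not measure its activity. In liver, made or imported cholesterol is stored as ester, secreted in lipoproteins, turned into bile acids or exported to bile. XBP1, a transcription factor activated when the endoplasmic reticulum is stressed, is known in liver for its part in secretion and in lipid synthesis.

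Total counts were 23919355 to 26502456 in XCON and 26477489 to 27240079 in XCKO, of which the 29 genes held between 40327 and 55840 reads a library. Mitochondrial genes took 22.8% of the counts in XCON 1 and 9.0% to 13.1% in the other libraries. Xbp1 itself stood at 171, 294 and 319 CPM (the count scaled to library size with edgeR's TMM factors) in XCON 1, 2 and 3 and at 59.0, 39.3 and 67.4 in XCKO 1, 2 and 3, a log2 fold change of −2.24 ± 0.29 (SE; edgeR adjusted p = 0.0084), in the direction of the labels. The 10 hepatocyte markers, of which 1 rose, summed to 86878 to 117493 CPM in XCKO and 62348 to 85635 in XCON. Most of the hepatocyte sum was Alb, at 57190 to 85281 CPM in XCKO and 45346 to 61832 in XCON. Alb, Apoa1, Hnf4a, Tat and Serpina1a overlapped between the groups, whereas Ttr, Cps1, Asgr1, Cyp2e1 and F2 did not. The 6 cholangiocyte markers summed to 82.5 to 162 CPM in XCKO and 251 to 583 in XCON with none called. Most of that sum was Spp1, at 76.3 to 157 CPM in XCKO and 227 to 563 in XCON. Spp1 and Krt7 did not overlap between the groups, whereas Krt19, Epcam, Sox9 and Cftr did. The 5 erythroid markers summed to 77.4 to 917 CPM in XCKO and 42.1 to 70.0 in XCON with none called. In XCKO 2, Alas2 held 62.6 of the 77.4 CPM. The 11 stellate cell markers, of which 2 fell, summed to 172 to 419 CPM in XCKO and 384 to 771 in XCON, and the 11 macrophage markers to 501 to 1411 in XCKO and 1418 to 2772 in XCON. The 8 endothelial markers summed to 475 to 933 CPM in XCKO and 640 to 655 in XCON, with a median log2 fold change of −0.03. The 6 lymphocyte markers summed to 2.06 to 4.84 CPM in XCKO and 2.27 to 16.0 in XCON. The 5 neutrophil markers summed to 5.24 to 71.5 CPM in XCKO and 14.9 to 34.6 in XCON. None of these last 3 lists held a called gene. None of the marker genes was at 0 in all libraries. In bulk libraries, fewer cells of a type and less RNA per cell cannot be told apart, and the part of these differences in the results below was not tested unless a value is given.

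All 29 genes passed the filter on low counts. At an adjusted p under 0.05, 3 of them fell in XCKO: Idi1 in the mevalonate arm, Cyp51 in the sterol steps and Soat1 among the acyltransferases. None was called higher by edgeR's quasi-likelihood test. At an unadjusted p under 0.05 there were 4 higher and 9 lower, DESeq2 called 4 higher and 5 lower, and limma-voom called 0 higher and 3 lower. Over all tested genes these counts were 2127 and 2294 unadjusted, 1415 and 1238 in DESeq2, and 817 and 618 in limma-voom. Of all 14873 genes tested, edgeR called 9.27%, 5.21% higher and 4.05% lower. The 10.3% it called among the 29 was close to that share in total, but all of it was lower. That closeness is of the edgeR fit, and DESeq2 called a larger share of the 29 than of all genes. The median log2 fold change of the 29 was −0.06 against −0.05 for all tested genes, with 13 above and 16 below zero. The 2 groups of libraries did not overlap for 11 of the 29 (37.9%), with XCKO above in 3 and below in 8, beside 35.7% of all tested genes. Among the synthesis enzymes, 7 had a fold change above zero and 13 below.

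**Figure D1:**
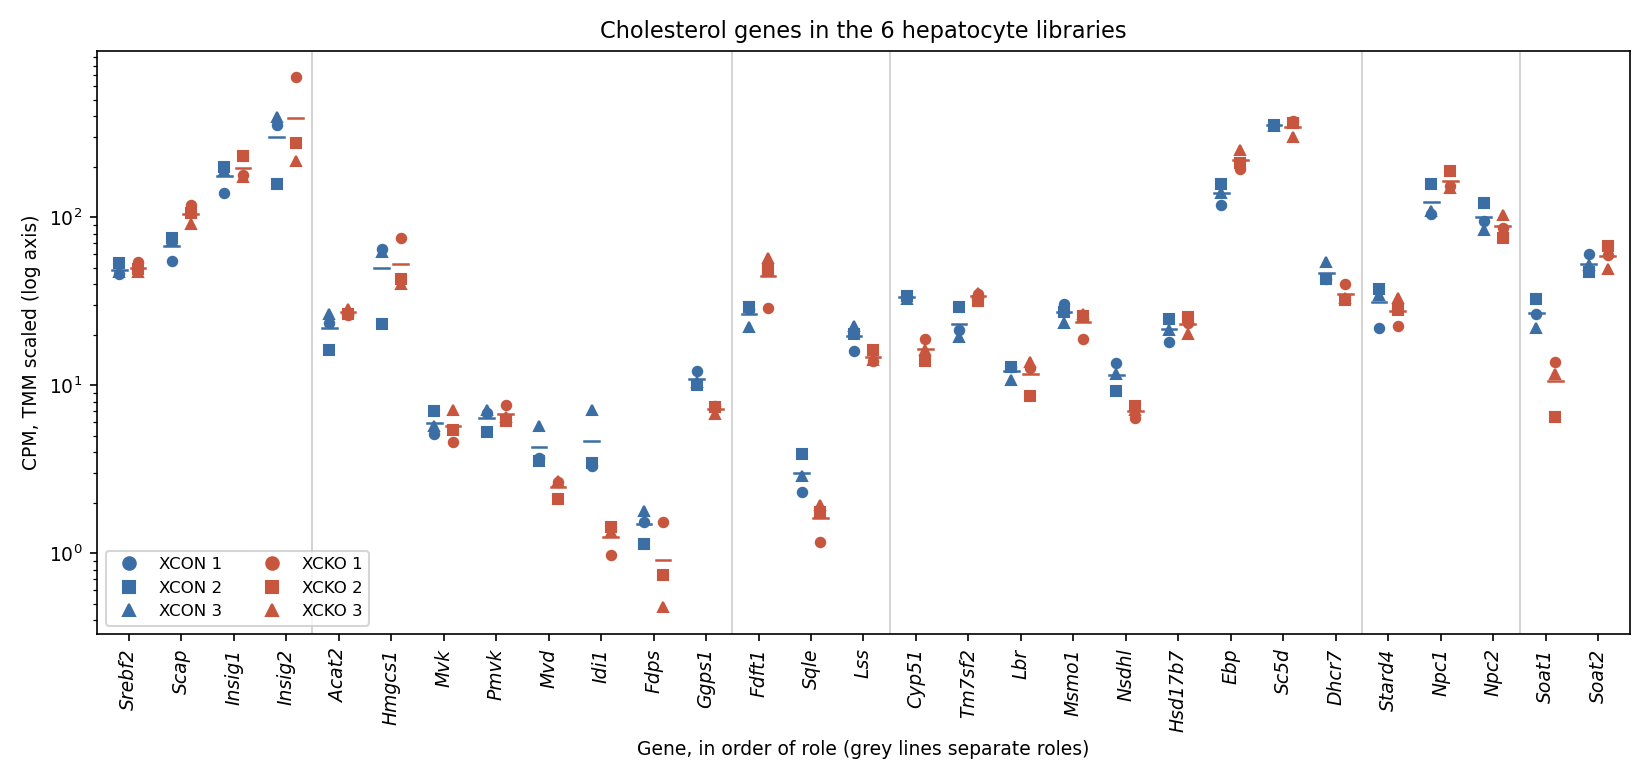
CPM (log axis) of each of the 29 genes in the 3 XCON libraries (blue) and 3 XCKO libraries (red), with symbols for the library number, short lines at the group means and grey lines between roles. Idi1, Cyp51 and Soat1 are lower in every XCKO library than in any XCON library, whereas Srebf2, Insig1 and Sc5d overlap between the groups.

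Promoters were read for 23 of the 29 genes from RefSeq on build GRCm38.p6, from 250 bases before to 50 after each start, and were searched on both strands for 3 motifs. The core of the sterol regulatory element, CACNCCAC, was in the promoters of 3 genes (Acat2, Hmgcs1 and Insig1; 13.0%), beside 6.2% of all 32851 promoters and 7.8% of the 10727 tested genes that have one. The NF-Y box CCAAT, bound by a factor that acts with SREBPs, was in 21 of 23 (91.3%), beside 37.4% of all promoters and 42.7% of the tested genes that have one. Only Acat2 and Scap lacked it. The XBP1 element TGACGTGG was in 0 of 23, beside 0.7% of all promoters and 1.0% of the tested genes. A match describes the letters of this window and is not evidence of binding, and no match says only that they are absent from it. Promoter sequences are shown for Cyp51 and Soat1, which fell, for Hmgcs1, which holds both a sterol element core and NF-Y boxes and was not called, and for Nsdhl and Ebp, sterol enzymes whose groups did not overlap, in opposite directions. They run 5′ to 3′ on the strand of the gene, and capitals mark the NF-Y box (CCAAT, or ATTGG where it lies on the other strand) and, in Hmgcs1, also CACCCCAC. The printed stretches stop at the base before the RefSeq start, except that of Cyp51, which ends 20 bases before it.
Cyp51, chr5:4104717-4104947, minus strand: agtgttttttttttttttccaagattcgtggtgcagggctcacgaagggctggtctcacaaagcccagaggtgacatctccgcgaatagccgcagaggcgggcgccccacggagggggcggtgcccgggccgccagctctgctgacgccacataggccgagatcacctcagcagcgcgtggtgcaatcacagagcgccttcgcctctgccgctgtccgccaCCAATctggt
Soat1, chr1:156474329-156474578, minus strand: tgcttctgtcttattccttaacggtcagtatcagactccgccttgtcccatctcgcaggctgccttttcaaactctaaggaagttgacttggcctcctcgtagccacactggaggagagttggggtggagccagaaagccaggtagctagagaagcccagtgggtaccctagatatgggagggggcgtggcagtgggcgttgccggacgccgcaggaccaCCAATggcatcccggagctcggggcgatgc
Hmgcs1, chr13:119690101-119690350, plus strand: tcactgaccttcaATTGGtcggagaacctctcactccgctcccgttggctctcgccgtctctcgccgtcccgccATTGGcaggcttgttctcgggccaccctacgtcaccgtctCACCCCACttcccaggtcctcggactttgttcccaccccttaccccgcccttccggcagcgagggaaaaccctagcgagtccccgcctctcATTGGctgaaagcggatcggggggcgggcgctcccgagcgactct
Nsdhl, chrX:72918271-72918520, plus strand: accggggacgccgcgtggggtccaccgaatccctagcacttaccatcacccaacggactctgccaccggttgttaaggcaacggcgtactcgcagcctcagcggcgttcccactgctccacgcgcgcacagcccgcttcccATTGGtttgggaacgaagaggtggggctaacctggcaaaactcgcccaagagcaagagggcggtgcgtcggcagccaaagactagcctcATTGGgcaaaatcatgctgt
Ebp, chrX:8193513-8193762, minus strand: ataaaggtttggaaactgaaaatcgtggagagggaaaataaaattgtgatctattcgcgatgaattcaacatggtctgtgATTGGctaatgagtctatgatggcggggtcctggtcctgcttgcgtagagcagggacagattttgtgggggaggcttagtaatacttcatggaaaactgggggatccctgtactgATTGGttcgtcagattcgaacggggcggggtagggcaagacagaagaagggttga

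The NF-Y box of Cyp51 lay 29 bases before the RefSeq start and that of Soat1 30 bases before it. In the deposited table Cyp51 starts further upstream, at chr5:4104746 on the minus strand, so by that start its box falls inside the gene. In Hmgcs1 the sterol element core began 136 bases before the start. Nsdhl and Ebp, whose fold changes had opposite signs, each held a pair of upstream boxes, 109 and 20 bases before the start in Nsdhl and 170 and 55 in Ebp.

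Among the 4 control genes, edgeR called none (1 higher and 0 lower at an unadjusted p under 0.05), DESeq2 called Scap higher, and the median log2 fold change was 0.26. Srebf2 had 45.8, 53.2 and 47.2 CPM in XCON 1, 2 and 3, beside 54.2, 48.9 and 46.9 in XCKO 1, 2 and 3. Its groups overlapped over most of their range, and its log2 fold change was 0.04 ± 0.14 (adjusted p = 0.87). Scap, the escort that carries SREBPs to the Golgi, had 54.7, 75.6 and 72.1 CPM in XCON and 119, 106 and 90.7 in XCKO. Every XCKO library lay above every XCON library, but the log2 fold change of 0.64 ± 0.18 missed the threshold in edgeR (adjusted p = 0.056). Scap passed in 3 of 11 other settings. Its adjusted p was 0.0096 in DESeq2, 0.016 in edgeR without the filter on low counts and 0.032 with the length correction. It passed in 0 of the 6 fits with a single library left out (edgeR adjusted p 0.079 to 0.15).

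Insig1 and Insig2 encode the proteins that retain SCAP. Insig1 is itself an SREBP target, whereas Insig2 in liver is known to change with feeding state and insulin. Insig1 had 140, 199 and 189 CPM in XCON and 179, 231 and 174 in XCKO, with a log2 fold change of 0.14 ± 0.20 (adjusted p = 0.66). Insig2 had 352, 158 and 395 CPM in XCON and 681, 277 and 216 in XCKO. Its spread within each group, 2.50-fold in XCON and 3.15-fold in XCKO from the lowest to the highest library, was larger than its difference between them (0.37 ± 0.50, adjusted p = 0.65). Per length, in the authors' FPKM, the ratio of Insig2 to Insig1 was 2.24, 0.706 and 1.86 in XCON and 3.38, 1.07 and 1.11 in XCKO. Insig1 exceeded Insig2 only in XCON 2. The ratio of Srebf2 to its paralogue Srebf1, which drives fatty acid synthesis, was 0.0518 to 0.0672 in XCON and 0.0207 to 0.0334 in XCKO, so Srebf1 was the more abundant in every library.

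In the mevalonate arm, 1 of 8 genes fell and edgeR did not call the other 7, with a median log2 fold change of −0.32. Hmgcs1, the synthase that makes HMG-CoA, had 64.6, 23.1 and 61.9 CPM in XCON and 75.3, 42.8 and 40.3 in XCKO. Libraries of 1 group differed up to 2.80-fold, and the log2 fold change was 0.08 ± 0.41 (adjusted p = 0.91). Acat2, which condenses acetyl-CoA into acetoacetyl-CoA (0.31 ± 0.19), and the kinases Mvk (−0.06 ± 0.24) and Pmvk (0.07 ± 0.21) were not called, with XCKO levels of 26.3 to 28.6, 4.61 to 7.09 and 6.09 to 7.65 CPM and XCON levels of 16.1 to 26.4, 5.12 to 7.0 and 5.28 to 7.10. Acat2 matches Acat3 at 97.7% over 1477 bases, and Acat3 held more reads (15743 against 3828), so the level of Acat2 is uncertain.

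The enzymes that follow the kinases had fold changes below zero. Mvd, the decarboxylase that forms isopentenyl diphosphate, had 3.69, 3.52 and 5.68 CPM in XCON and 2.67, 2.10 and 2.68 in XCKO, without overlap, but was not called (−0.79 ± 0.29, adjusted p = 0.11). Idi1, the isomerase that forms dimethylallyl diphosphate (ENSMUSG00000058258, mm10 chr13:8885501-8892451), had 3.31, 3.45 and 7.13 CPM in XCON and 0.971, 1.44 and 1.34 in XCKO. It fell by 1.89 ± 0.39 on the log2 scale (edgeR adjusted p = 0.024), with every XCKO library below every XCON library. Without XCON 3, the highest library, or without XCKO 1 or XCKO 3, it was not called (largest adjusted p 0.075, without XCKO 3).

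Idi1 shares sequence with processed pseudogenes, so part of its reads could have been assigned elsewhere. Gm35570 matches it at 97.7% over 681 bases and held 554 reads against 483 for Idi1, at 0.885, 6.42 and 4.90 CPM in XCON and 1.86, 3.03 and 3.76 in XCKO. With the reads of Idi1 and its copies summed, the log2 fold change was −1.09 ± 0.38 and no longer passed (adjusted p = 0.10).

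Fdps, which builds farnesyl diphosphate, had the lowest level of the 29 per length (0.346 ± 0.0826 FPKM in XCON, SD, n = 3). Its CPM were 1.54, 1.14 and 1.79 in XCON and 1.54, 0.737 and 0.476 in XCKO (−0.69 ± 0.49, adjusted p = 0.37). The pseudogene Gm3571 matches it at 98.9% over 1062 bases and held more reads, 321 against 192, so its level is uncertain. Ggps1, which extends farnesyl to geranylgeranyl diphosphate for protein prenylation, had 12.1, 10.1 and 10.4 CPM in XCON and 7.57, 7.41 and 6.70 in XCKO. These did not overlap, but the log2 fold change of −0.59 ± 0.17 was not past the threshold in edgeR (adjusted p = 0.062). It passed in 3 of 11 other settings: DESeq2 (0.044), edgeR with a filter of 5 CPM in 3 libraries (0.043) and library totals alone (0.021). With a single library left out it passed in 0 of 6 fits (edgeR adjusted p 0.11 to 0.18). Arid4b, whose gene overlaps Ggps1 by 257 bases on the opposite strand, differed the same way (−0.43 ± 0.16, edgeR adjusted p = 0.11).

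Of the 3 enzymes from farnesyl diphosphate to lanosterol, edgeR called none (1 higher and 2 lower at an unadjusted p under 0.05), DESeq2 called Fdft1 higher, and the fold changes went both ways. Fdft1, squalene synthase and the first enzyme committed to sterols, had 28.4, 29.2 and 22.1 CPM in XCON and 29, 48.2 and 57.1 in XCKO. XCKO 1 lay within the XCON range, and the log2 fold change was 0.75 ± 0.24 (edgeR adjusted p = 0.085, 0.012 without the filter on low counts, and 0.028 in DESeq2). Fdft1 passed in those 2 of 11 other settings and in 1 of 6 fits with a library left out (edgeR adjusted p 0.03 to 0.2). Its transcript overlaps 774 bases of Ctsb on the opposite strand, which was at 1008 to 1637 CPM. The sources used here do not say whether reads were counted by strand. Sqle, the squalene epoxidase that is a rate-controlling step, had 2.31, 3.89 and 2.87 CPM in XCON and 1.17, 1.75 and 1.95 in XCKO, without overlap (−0.90 ± 0.34, adjusted p = 0.12). Lss, which closes the sterol rings, had 16.0 to 22.6 CPM in XCON and 14 to 16.1 in XCKO (−0.41 ± 0.17, adjusted p = 0.14).

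Between lanosterol and cholesterol, 1 of 9 enzymes fell and edgeR did not call the other 8, of which DESeq2 called Tm7sf2 and Ebp higher and Nsdhl lower. Cyp51, the cytochrome P450 that removes a methyl group from lanosterol (ENSMUSG00000001467, mm10 chr5:4081145-4104746), had 33.7, 33.8 and 32.7 CPM in XCON and 18.8, 14 and 16.3 in XCKO. The XCON libraries were nearly equal (33.4 ± 0.643, SD, n = 3) and all XCKO libraries lay well below them (16.4 ± 2.42). Cyp51 fell by 1.03 ± 0.15 on the log2 scale, or 2.04-fold (edgeR adjusted p = 0.010). It stayed past the threshold when each of the 6 libraries was left out in turn, with adjusted p-values of 0.017 to 0.043. Akap9, whose gene overlaps it by 166 bases, differed by −0.05. Per length, it went from 12th of the 29 in XCON (7.37 FPKM) to 19th in XCKO (3.71 FPKM).

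**Figure D2:**
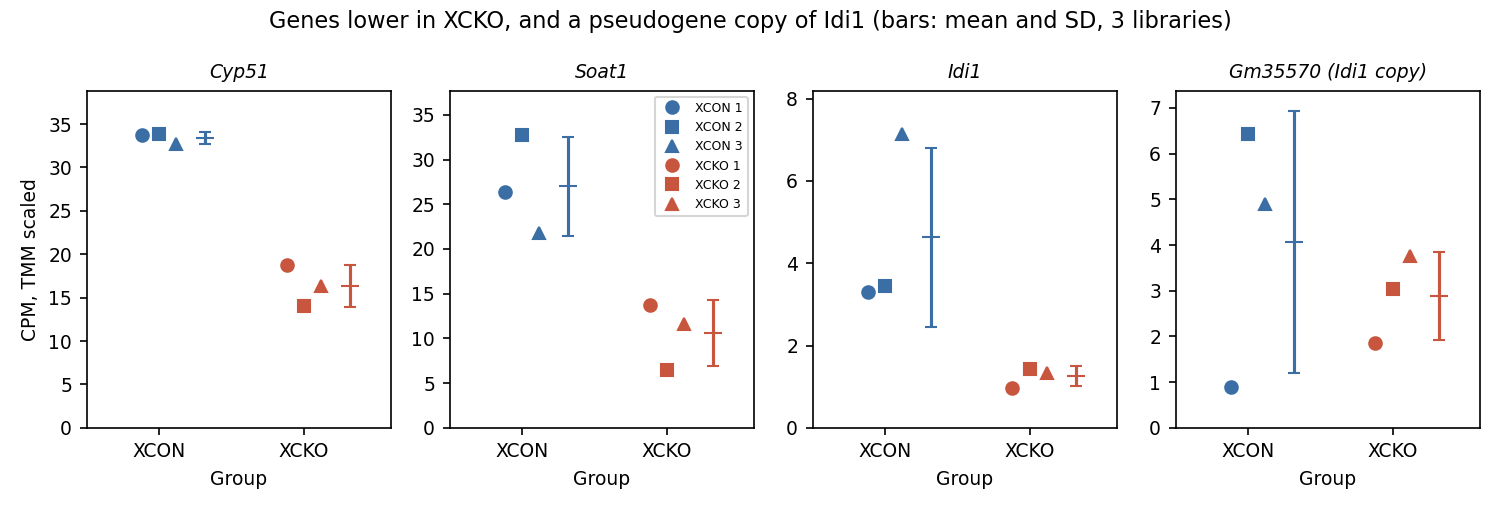
CPM of Cyp51, Soat1 and Idi1, and of the processed pseudogene Gm35570, a near copy of Idi1, in each library, with the group mean and SD (n = 3) beside the points. The Cyp51 points lie at 32.7 to 33.8 in XCON and 14 to 18.8 in XCKO, while the copy of Idi1 overlaps between the groups.

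edgeR did not call the enzymes that act just after Cyp51. Tm7sf2, a sterol reductase of the next step, had 21.3, 29.1 and 19.4 CPM in XCON and 34.8, 31.7 and 35.5 in XCKO, with XCKO above throughout (0.55 ± 0.17, edgeR adjusted p = 0.078, 0.031 without the filter on low counts, and 0.041 in DESeq2). Tm7sf2 passed in those 2 of 11 other settings and in 1 of 6 fits with a library left out (edgeR adjusted p 0.043 to 0.2). Its row in the table also spans Vps51, so its reads may not all be its own. Lbr, the nuclear membrane protein with the same reductase activity, had 12.8, 12.9 and 10.7 CPM in XCON and 12.6, 8.58 and 13.7 in XCKO (−0.06 ± 0.20, adjusted p = 0.87). Msmo1, the sterol methyl oxidase, and Hsd17b7, a sterol ketone reductase, differed by −0.19 ± 0.18 and 0.11 ± 0.16 on the log2 scale, at 23.4 to 30.6 and 18.2 to 24.9 CPM in XCON and 18.9 to 26.7 and 20.3 to 25.5 in XCKO.

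Nsdhl, the sterol dehydrogenase that works with Msmo1, had 13.5, 9.20 and 11.6 CPM in XCON and 6.40, 7.57 and 7.13 in XCKO. The groups did not overlap, with a log2 fold change of −0.70 ± 0.20 just outside the threshold (edgeR adjusted p = 0.055, 0.042 without the filter on low counts, and 0.031 in DESeq2). Nsdhl passed in 4 of 11 other settings and in 0 of 6 fits with a library left out (edgeR adjusted p 0.057 to 0.17). Ebp, the sterol isomerase, differed the other way, with 119, 158 and 140 CPM in XCON and 194, 211 and 250 in XCKO. Every XCKO library was above every XCON library, and its log2 fold change of 0.65 ± 0.18 also lay just outside (edgeR adjusted p = 0.054, 0.022 without the filter, and 0.0051 in DESeq2). Ebp passed in those 2 of 11 other settings and in 0 of 6 fits with a library left out (edgeR adjusted p 0.069 to 0.14).

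Neither edgeR nor DESeq2 called the last enzymes of the pathway. Sc5d, the desaturase, was nearly equal across the XCON libraries, with 355, 353 and 351 CPM there and 372, 364 and 299 in XCKO (−0.03 ± 0.17, adjusted p = 0.91). Dhcr7, the final reductase of the route through lathosterol, had 42.8, 42.6 and 54.2 CPM in XCON and 40.0, 32.1 and 33.0 in XCKO (−0.41 ± 0.16, adjusted p = 0.13). The CPM of the 20 synthesis enzymes summed to 814, 814 and 837 in XCON and 892, 879 and 869 in XCKO. That sum is set mostly by Sc5d and Ebp, and it was higher in every XCKO library although the median log2 fold change of the 20 was −0.12. Of these 2 genes only Ebp had a higher mean in XCKO, 218 CPM against 139 in XCON, while Sc5d had 345 against 353.

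**Figure D3:**
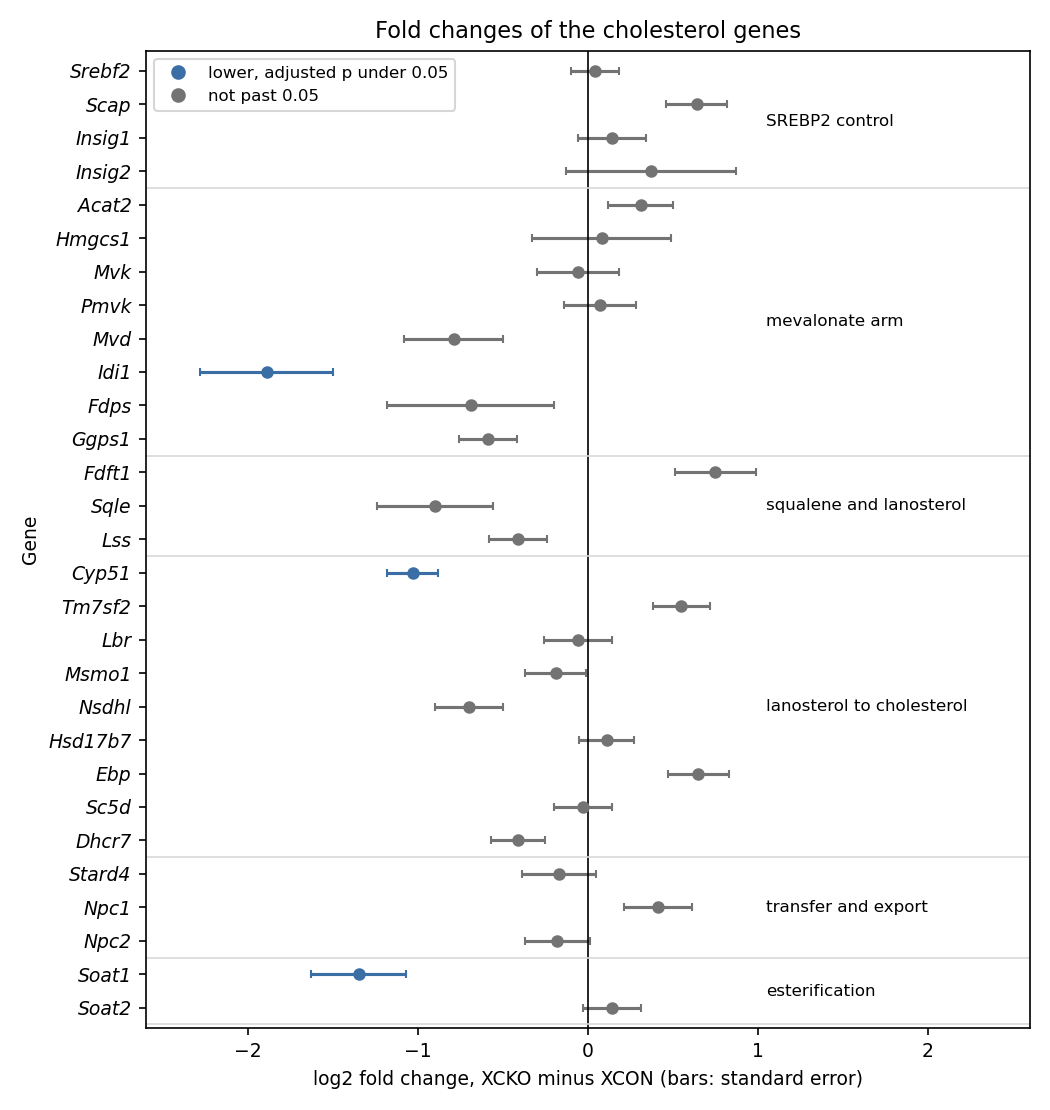
Log2 fold change (XCKO minus XCON) of each of the 29 genes with its standard error, in order of role, with genes past an adjusted p of 0.05 in blue and the rest in grey. Values run from −1.89 for Idi1 to 0.75 for Fdft1, and both signs occur in every role except SREBP2 control, where all 4 values are above zero.

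Neither edgeR nor DESeq2 called any of the 3 transfer and export genes, and edgeR gave 0 at an unadjusted p under 0.05. Stard4, a carrier that moves sterol between membranes, had 21.9, 37.4 and 34.3 CPM in XCON and 22.5, 27.9 and 32.9 in XCKO (−0.17 ± 0.22, adjusted p = 0.65). Npc1, which takes cholesterol out of lysosomes, had 104 to 157 CPM in XCON and 150 to 188 in XCKO (0.41 ± 0.20, adjusted p = 0.21). Npc2, the soluble lysosomal protein that hands sterol to NPC1, had 95.3, 122 and 83.6 CPM in XCON and 86.7, 75.0 and 103 in XCKO (−0.18 ± 0.19, adjusted p = 0.56).

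Of the 2 acyltransferases that make cholesteryl ester, 1 fell. Soat1, the form found in most tissues and in macrophages (ENSMUSG00000026600, mm10 chr1:156424525-156474331), had 26.4, 32.8 and 21.8 CPM in XCON and 13.7, 6.44 and 11.6 in XCKO. Every XCKO library was below every XCON library, and Soat1 fell by 1.35 ± 0.28 on the log2 scale (edgeR adjusted p = 0.027). Soat2, the form of hepatocytes and intestine, had 60.2, 47.2 and 51.7 CPM in XCON and 59.2, 67.3 and 49.1 in XCKO (0.14 ± 0.17, adjusted p = 0.60). Per length, Soat2 exceeded Soat1 in every library, with FPKM ratios of 10.1, 6.37 and 10.5 in XCON beside 19.1, 46.2 and 18.8 in XCKO. Soat1 was called only without XCKO 1 or without XCKO 2 when libraries were left out singly, and the largest adjusted p was 0.082, without XCKO 3.

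Marker sums of other cell types are set beside Soat1, since it is expressed outside hepatocytes. The 11 macrophage markers summed to 1921, 2772 and 1418 CPM in XCON 1, 2 and 3 and to 1227, 501 and 1411 in XCKO 1, 2 and 3, with a median log2 fold change of −0.92. Of the 11, Cd68 fell (−1.34, edgeR adjusted p = 0.033) and 10 were not called. The 11 stellate cell markers summed to 384, 675 and 771 CPM in XCON and 419, 172 and 284 in XCKO, with a median log2 fold change of −0.96. Of these, Lrat (−0.78, edgeR adjusted p = 0.024) and Pdgfrb (−1.48, adjusted p = 0.017) fell and 9 were not called. The 8 endothelial markers summed to 640, 649 and 655 CPM in XCON and 933, 475 and 569 in XCKO, with none called. Soat1 was highest in XCON 2 and lowest in XCKO 2, as was the macrophage sum, while the stellate sum was highest in XCON 3 and lowest in XCKO 2. XCON 3 and XCKO 3 had nearly equal macrophage sums, 1418 and 1411, with Soat1 at 21.8 and 11.6 CPM. Single macrophage markers differed both ways between them, such as Lyz2 (258 and 318 CPM) and Cd68 (42.7 and 29.4 CPM). The stellate sums of this pair were 771 and 284. Npc2 was also highest in XCON 2 and lowest in XCKO 2, whereas Soat2 was lowest in XCON 2 and highest in XCKO 2. The part of macrophage or stellate cell RNA in the Soat1 difference was not tested.

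**Figure D4:**
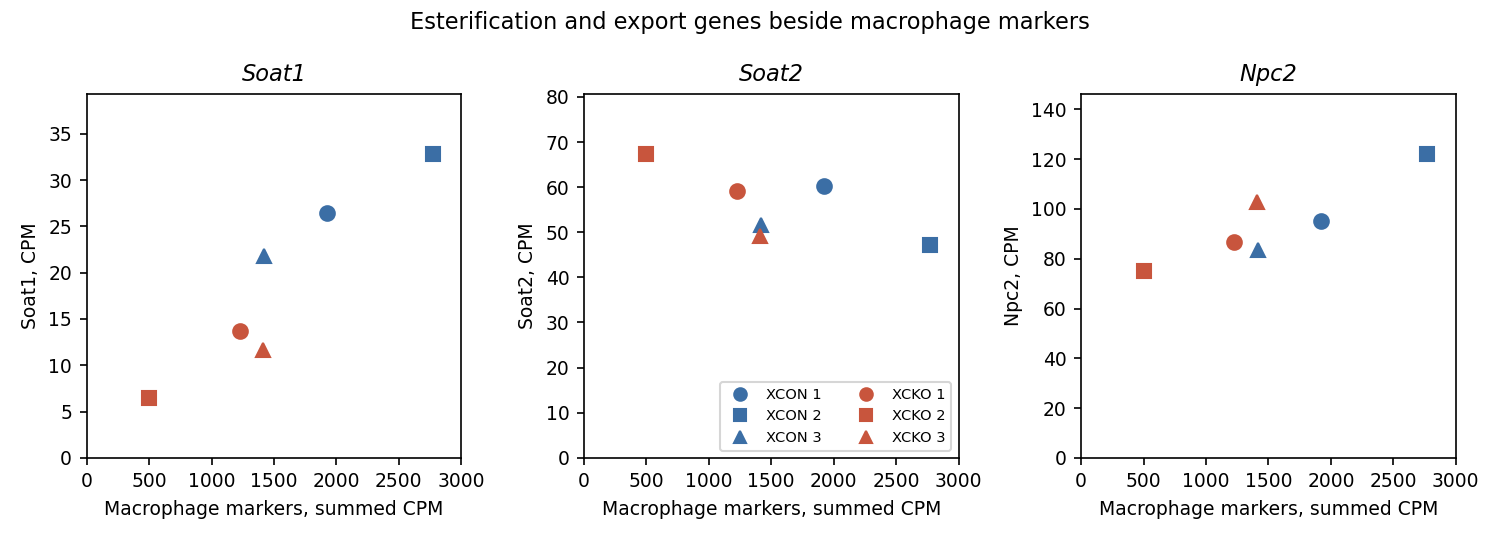
CPM of Soat1, Soat2 and Npc2 (y axes) against the summed CPM of 11 macrophage markers (x axes) in each of the 6 libraries. XCON 2 (2772) and XCKO 2 (501) lie at the ends of the marker scale. XCON 3 and XCKO 3 nearly coincide on it, although single markers differ both ways between them, and Soat1 is 21.8 and 11.6.

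Compared per length, the 29 genes spanned a wide range of levels. Insig2 (85.0 ± 36.6 FPKM, SD, n = 3), Sc5d (70.6 ± 1.03), Ebp (58.5 ± 8.0) and Insig1 (55.5 ± 10.1) headed the order in XCON, and the same 4 genes headed it in XCKO. The spread of Insig2 covers Sc5d and Ebp, so these neighbours are not separated. Soat2 (23.3 ± 2.96) and Npc2 (17.9 ± 3.21) followed. At the other end, Idi1 (1.29 ± 0.632), Sqle (0.530 ± 0.135) and Fdps (0.346 ± 0.0826) were the last 3 in both groups. In XCKO Soat1 went from 21st to 26th, with 2.68 ± 0.504 FPKM in XCON and 1.08 ± 0.391 in XCKO, and Tm7sf2 from 18th to 13th.

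**Figure D5:**
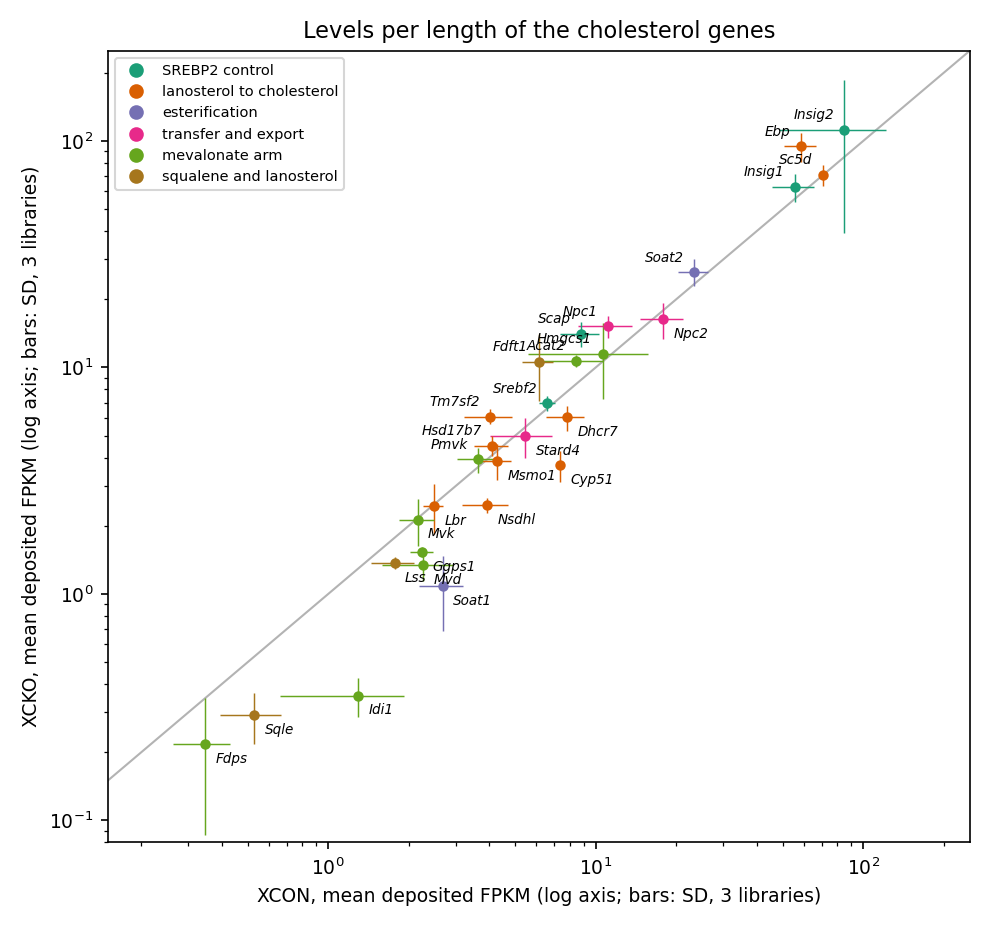
Mean FPKM as deposited (log axes) of each of the 29 genes in XCON (x axis) and XCKO (y axis), coloured by role, with bars for the SD over 3 libraries and the line of equal level. Insig2, Sc5d, Ebp and Insig1 lie at the upper end and Fdps, Sqle and Idi1 at the lower end, and Idi1, Soat1 and Cyp51 lie below the line.

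A further 52 genes of sterol biology, on a list drawn up with earlier results of these data known, gave the surroundings of the pathway. At an adjusted p under 0.05, 3 of the 52 rose in XCKO and edgeR called 0 lower (13 higher and 2 lower at an unadjusted p under 0.05). DESeq2 called 10 higher and 0 lower, and limma-voom 5 and 0. The 5.8% that edgeR called, all higher, stood beside 9.27% of all tested genes called and 5.21% called higher. Of all 14873 tested genes, 2127 were higher and 2294 lower at an unadjusted p under 0.05 in edgeR, and DESeq2 called 1415 higher and 1238 lower. The median log2 fold change of the 52 was 0.21, with 39 above and 13 below zero, beside 6910 and 7963 of all tested genes. Acat1, the mitochondrial thiolase of ketone body metabolism, had 218, 181 and 259 CPM in XCON and 368, 380 and 392 in XCKO (0.79 ± 0.18, edgeR adjusted p = 0.033). Pgrmc1, a haem-binding partner of CYP51 and other cytochromes P450, had 873, 1009 and 878 CPM in XCON and 1677, 1635 and 1625 in XCKO (0.84 ± 0.18, edgeR adjusted p = 0.025). Abcg8, which with ABCG5 exports sterol to bile, had 180, 149 and 212 CPM in XCON and 328, 418 and 277 in XCKO (0.92 ± 0.21, edgeR adjusted p = 0.034).

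None of these 3 calls held in every leave-one-out fit. Acat1 passed only without XCON 3 (adjusted p = 0.047), Pgrmc1 only without XCON 1 (0.049) or XCON 2 (0.047), and Abcg8 in none (0.053 to 0.087). Genes just outside the threshold, named after their values were seen, were Abcg5, with 209 to 301 CPM in XCON and 377 to 500 in XCKO (0.73 ± 0.20, adjusted p = 0.053), Coq2, and Por, the reductase that supplies electrons to CYP51 and squalene epoxidase. Coq2, a prenyltransferase of ubiquinone synthesis, had 32.0 to 36.5 CPM in XCON and 46.3 to 50.5 in XCKO (0.48 ± 0.13, adjusted p = 0.054). Por had 202, 571 and 228 CPM in XCON and 717, 1326 and 1373 in XCKO (1.77 ± 0.45, adjusted p = 0.052). By role, the 9 partners of the sterol enzymes, among them Pgrmc1 and Por, had the highest median (0.49), with 1 called higher, all 9 above zero and XCKO above XCON without overlap in 6. Of all 14873 tested genes, 6910 were above zero and 2614 had XCKO above without overlap. Of 7 LXR and efflux genes 1 was called higher (median 0.16), and of 5 genes of acetyl-CoA and acetoacetyl-CoA supply 1 (median −0.05). edgeR called none of 9 genes of SREBP processing and reductase turnover (median 0.23), of 11 of the isoprenoid branches (0.14) or of 11 of sterol movement and ester hydrolysis (0.18). At an unadjusted p under 0.05 these sets held 0, 2 and 2 higher and 0, 0 and 1 lower.

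In the authors' deposited table, 8 of the 29 genes had an adjusted p under 0.05, beside 10.2% of the 24709 genes with a value there. The 4 lower ones in the authors' deposited table were Idi1 (log2 fold change −1.86, adjusted p = 0.00034), Cyp51 (−0.99, 4.4e-05), Soat1 (−1.31, 0.00033) and Nsdhl (−0.67, 0.045). The 4 higher ones in the authors' deposited table were Scap (0.68, 0.011), Ebp (0.69, 0.0059), Fdft1 (0.79, 0.024) and Tm7sf2 (0.59, 0.042). The authors' values come from the same 6 libraries, so the same sign for all 8 in the edgeR fit is not independent evidence. The 5 called only in the authors' table had edgeR adjusted p-values between 0.054 and 0.085.

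The balance of higher and lower calls moved with the scaling of the libraries. Among the 29 it also moved with the filter and the test. There were 4 higher and 4 lower without the filter on low counts, and 4 and 5 in DESeq2. Over library totals alone, without TMM, the median log2 fold change of all tested genes moved from −0.05 to −0.31 and that of the 29 from −0.06 to −0.33. Of the 29, 0 were then higher and 9 lower, and of all genes 326 were higher and 2032 lower, in place of 775 and 603. Cyp51, Idi1 and Soat1 were lower under either scaling.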

How the data were processed

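RNA-seq libraries of 3 XCON and 3 XCKO hepatocyte preparations were analysed from 1 deposited table. Its read counts per gene, made by the authors from total RNA (Trizol, NEBNext Ultra kit) per the labels' protocols, are not normalized, and the authors also deposited FPKM per library, with group means as a signal and a log2 fold change with p-values. Bowtie 0.12.2 and, with no role, the builds mm8 and mm10 come from the submitters' processing notes. The sources used here name neither a counter nor its strand setting. Positions match mm10 for 27 of the 29 genes.

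Counts were tested with edgeR 4.0.16 (R 4.3.3; TMM, robust quasi-likelihood F-test, filterByExpr leaving 14873 genes, Benjamini-Hochberg adjustment over all of them, threshold 0.05), with a biological coefficient of variation of 25.8%. The standard error is the log2 fold change over the square root of F. Alternatives were DESeq2 1.42.0, limma-voom (limma 3.58.1), limma on log2(FPKM + 1) and log2(FPKM + 0.1), other scalings and filters, a length correction, a replicate block, each library left out, and, added after seeing the data, reads summed with sequence copies. The scripts were tested on simulated data. Transcripts were compared with blastn to find copies.

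The genes and lists were chosen with earlier results of these data known. Values in every library are given for called genes, control genes, genes whose groups did not overlap and the highest and lowest gene of each role, and other genes by range. Total counts were 23919355 to 27240079 a library. The standard errors of the 29 genes were largest for Insig2 (0.50), Fdps (0.49) and Hmgcs1 (0.41).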

Additional observations from a re-analysis of the deposited data

How the results depend on the processing

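Cyp51 was lower past the threshold under all 11 other settings and all 6 leave-one-out fits. Beside 0 higher and 3 lower of the 29, the counts were 4 higher and 4 lower without a filter, and 4 higher and 5 lower with DESeq2. There were 1 higher with the length correction and 9 lower over library totals alone. Fits with single libraries left out gave 0 to 1 higher and 1 to 3 lower (1 lower without XCKO 3). Beside 3 related genes called higher, there were 5 with median-of-ratios size factors, 1 over library totals (Por, none of the 3, with 3 lower, Abcg1, Gramd1a and Osbp), 6 without a filter, 10 with DESeq2, 5 with limma-voom, 6 on log2(FPKM + 1), and 0 to 2 with single libraries left out. The 1378 genes called in all became 2358 over library totals, 2160 without a filter, 2653 with DESeq2, and 309 (without XCKO 3) to 810 (without XCKO 2) with single libraries left out. The cause was not tested. No gene whose sign turned was called. Over library totals Srebf2 was −0.22, Insig1 −0.11, Hmgcs1 −0.18, Pmvk −0.19, Hsd17b7 −0.15 and Soat2 −0.11. Srebf2 was −0.02 with a filter of 5 CPM in 3 libraries, and with the length correction Pmvk was −0.06 and Sc5d 0.01. With single libraries left out, Srebf2 ranged from −0.01 to 0.11, Insig2 from −0.28 to 0.69, Hmgcs1 from −0.26 to 0.32, Mvk from −0.22 to 0.08, Pmvk from −0.04 to 0.19, Lbr from −0.17 to 0.17 and Sc5d from −0.08 to 0.08.

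The replicate numbers were not used as pairs in the main fit. Deviations of same-numbered libraries from their group means correlated at r = 0.06, 0.08 and −0.17 over genes, and those of differently numbered libraries at −0.16 to 0.11. Such correlations over all genes cannot decide whether same-numbered libraries were prepared together. A fit with the replicate block called 322 genes in all, 1 of the 29 lower (Cyp51) and 1 related gene higher (Por). Idi1 and Soat1 were not called in it, nor were Acat1 (adjusted p = 0.069), Pgrmc1 (0.072) and Abcg8 (0.092). Low depth touches Fdps, Idi1 and Sqle, which hold few reads in each library, while Insig2 and Hmgcs1, with many reads, have standard errors of 0.50 and 0.41.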
